A study of Homo sapiens with 6 samples.

Results

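The 37 genes of the human mitochondrial chromosome were followed in RNA recovered with the FERRY complex as bait and with the bare affinity tag. They were taken as all rows of the count table whose gene symbol starts with MT- and whose gene lies on the mitochondrial chromosome, which gave 13 mRNAs, 2 rRNAs and 22 tRNAs out of 60676 rows. FERRY is a multi-subunit complex that binds RAB5, a GTPase of early endosomes. In the tested pulldowns the complex was fused to glutathione S-transferase (GST-Ferry), and in the controls GST was the bait by itself. Both baits were held on glutathione resin and given a whole lysate of freeze-thawed, mechanically broken HEK 293 cells, a long-established line from human embryonic kidney that was kept in suspension. Ribosomal RNA was removed before strand-specific libraries were made. There were 3 libraries per bait. The table's columns call them sample and control with a number, and sample was read as GST-Ferry and control as GST from those words alone, which is an assumption.

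The GST-Ferry libraries held 2454538 to 6532665 counts and the GST libraries held 7390346 to 10466520. Levels are given as normalised CPM, read counts scaled to the library total corrected by TMM factors, and log2 fold changes are GST-Ferry over GST. Of the genes known from HEK 293, VIM averaged 1112 ± 206 CPM with GST-Ferry and 713 ± 111 CPM with GST, and NEFL, NEFM and PAX2 were present in every library. HBA2 and HBB were at 0 in all 6 libraries, and HBA1, ALB and PTPRC averaged at most 0.229 CPM in either group. In all, 97 of 15546 genes tested were called different by edgeR's quasi-likelihood test at a Benjamini-Hochberg adjusted p under 0.05. Leaving out GST-Ferry 2 gave a count of 0, with 1704 genes at a raw p under 0.05. The count was 3 without GST-Ferry 3, 3 without GST 2 and 1259 without GST 3. It was 2746 with GST 3 and GST-Ferry 1 both left out. The labels do not say whether replicates are separate cultures, and the p-values therefore cover only the spread among these libraries, which could be technical.

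Human mitochondrial DNA is a small circle that is transcribed from both strands into long precursors. The tRNAs lie between most of the other genes and are cut out by RNase P and RNase Z enzymes, which releases the mRNAs and rRNAs. The mRNAs are translated inside the organelle by its own ribosomes, and their proteins join nuclear-encoded subunits in respiratory complexes I, III, IV and V. Complex II is built from nuclear-encoded subunits alone. Since these RNAs are made and used within the mitochondrion, their level in a pulldown is a measure of mitochondrial RNA in the recovered material. In such bulk material fewer mitochondria and less RNA per mitochondrion cannot be told apart. Nor can RNA bound by the bait be told from RNA carried along with it. No library of the lysate itself is among the 6, and each level is relative to the other RNA of its library.

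The gene map itself limits how the counts can be read, and the sequences below, taken from GENCODE 29 transcripts on GRCh38, show where. Of the 37 genes, 28 are listed on the plus strand and 9 on the minus strand, which holds MT-ND6 and 8 tRNAs. The reading frames of MT-ATP8 and MT-ATP6 share 46 bases (M:8527-8572), 22.2% of MT-ATP8, and those of MT-ND4L and MT-ND4 share 7 bases (M:10760-10766). Capitals mark the start codon of the second gene and the stop codon of the first.
MT-ATP8 and MT-ATP6, shared bases: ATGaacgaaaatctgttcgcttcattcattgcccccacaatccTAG
MT-ND4L, last 30 bases with the start of MT-ND4: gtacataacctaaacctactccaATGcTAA
A read inside the shared bases belongs to both genes. How such reads were counted is not given in the sources used here, and their part in the low counts of MT-ATP8 was not tested.

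The strands also differ in base make-up, which the first 45 coding bases of the most abundant plus-strand mRNA (M:5904-5948) and of the minus-strand MT-ND6 (M:14629-14673) show, with the start codon in capitals.
MT-CO1: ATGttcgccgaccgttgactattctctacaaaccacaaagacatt
MT-ND6: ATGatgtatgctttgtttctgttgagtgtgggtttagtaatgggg
Over the whole reading frame MT-ND6 held 35.6% G and 7.05% C. The 12 plus-strand mRNAs ran from 6.28% to 16.2% G and from 29.5% to 36.0% C. Of the 13 reading frames, 9 start with ATG, 3 with ATA and 1 with ATT. Only 5 end in TAA or TAG, 2 end in AGA or AGG, and 6 stop 1 or 2 bases short of a full codon, which the added poly(A) tail is known to complete.

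None of the 15 mitochondrial transcripts with enough counts to test differed between the baits beyond the spread between libraries. The share of counts on the 37 genes was 1.02%, 0.465% and 0.755% in GST-Ferry 1, 2 and 3, against 0.962%, 0.635% and 0.635% in GST 1, 2 and 3. The means were 0.746% ± 0.277 with GST-Ferry and 0.744% ± 0.189 with GST (SD, n = 3 each). Exact 95% binomial intervals, which cover counting error only, were narrow beside these differences between libraries, for example 0.457% to 0.473% in GST-Ferry 2 and 0.955% to 0.968% in GST 1. GST-Ferry 1 had the highest share and GST-Ferry 2 the lowest, with the GST libraries between them.

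The 13 mRNAs and 2 rRNAs passed the filter on low counts and none of the 22 tRNAs did. Of these 15, 0 were called by edgeR's quasi-likelihood test, 0 had an unadjusted p under 0.05, and DESeq2 and limma-voom also called 0. Over all genes tested 0.624% were called, 0.592% higher and 0.0322% lower, so a count of 0 among 15 lies near the background. The adjusted p of the quasi-likelihood test lay between 0.487 for MT-RNR2 and 0.991 for MT-CO1. The groups overlapped for each of the 15, whereas 27.1% of all genes tested had groups without overlap. The 13 mRNAs had a median log2 fold change of GST-Ferry over GST of -0.01, against -0.03 over all genes tested, with 6 above 0 and 7 below. That median was 0.36 without GST 1, 0.24 without GST-Ferry 2 and -0.25 without GST-Ferry 1, so single libraries set its sign.

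**Figure D1:**
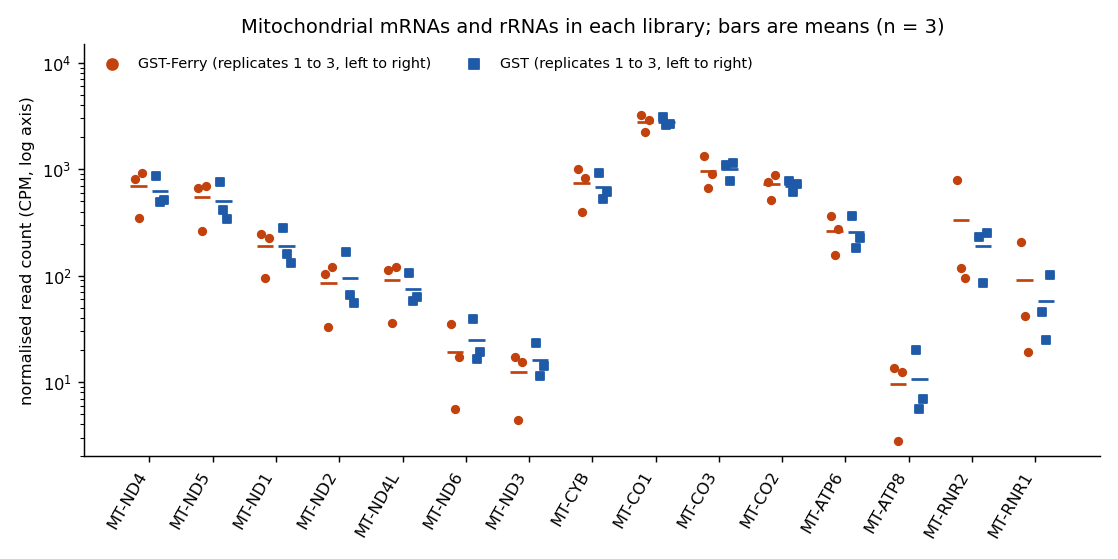
Normalised read count (CPM, log axis) of each mitochondrial mRNA and rRNA in each library, with GST-Ferry as circles left of GST as squares and bars for the means of 3 libraries. The groups overlap for all 15 transcripts, and GST-Ferry 2 is the lowest library for each of the 13 mRNAs.

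Complex IV, cytochrome c oxidase, takes its 3 catalytic core subunits from mitochondrial DNA, and their mRNAs varied least between libraries and were the most abundant per length. By CPM alone MT-CYB, at a mean of 714 CPM over the 6 libraries, stood beside MT-CO2 at 712 CPM. MT-CO1, the subunit that holds the oxygen-reducing centre, had 3214, 2232 and 2891 normalised CPM in GST-Ferry 1, 2 and 3, against 3085, 2609 and 2685 in GST 1, 2 and 3. The highest and the lowest library were both GST-Ferry libraries, with the GST libraries between them. Its log2 fold change was -0.01 ± 0.23 (SE), with a 95% interval of -0.49 to 0.48. MT-CO2, which accepts electrons from cytochrome c, had 763.8, 517.2 and 885 CPM with GST-Ferry, against 770, 615 and 720 CPM with GST (log2 fold change 0.04 ± 0.23). MT-CO3 had 1319, 672 and 892 CPM with GST-Ferry, against 1083, 766 and 1140 CPM with GST (log2 fold change -0.05 ± 0.26). For these 3 mRNAs the intervals together spanned -0.62 to 0.54 on the log2 scale. A change of 2-fold in either direction lies outside them.

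Complex I, NADH dehydrogenase, has 7 mitochondrially encoded subunits, all in its membrane arm, and their mRNAs varied more between libraries of the same bait. MT-ND4 had 809, 350.5 and 927 CPM in GST-Ferry 1, 2 and 3, against 861, 493 and 514 CPM in GST 1, 2 and 3. MT-ND5 had 668, 259.8 and 702 CPM with GST-Ferry, against 751, 412 and 341 CPM with GST. In both, GST-Ferry 1, GST-Ferry 3 and GST 1 formed the upper values and the other libraries the lower ones. Their log2 fold changes were 0.16 ± 0.33 for MT-ND4 and 0.12 ± 0.36 for MT-ND5.

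MT-ND1, MT-ND2, MT-ND4L and MT-ND3 also had GST-Ferry 1, GST-Ferry 3 and GST 1 above the other libraries. MT-ND1 had 248, 95 and 223 CPM with GST-Ferry, against 279, 161 and 132 CPM with GST, a log2 fold change of -0.01 ± 0.34. MT-ND2 had 103, 32.9 and 119.5 CPM with GST-Ferry, against 165, 65.7 and 55 CPM with GST (log2 fold change -0.16 ± 0.44). MT-ND4L, whose frame runs into that of MT-ND4, had 114, 35.6 and 122 CPM with GST-Ferry, against 105, 57.3 and 62.7 CPM with GST. It had the highest log2 fold change of the 13 mRNAs at 0.27 ± 0.37. MT-ND3 had the lowest, -0.34 ± 0.40, from 17.2, 4.36 and 15.6 CPM with GST-Ferry and 23.1, 11.4 and 14.1 CPM with GST. The low value in GST-Ferry 2 rested on 11 counts. Across the 7 mRNAs the log2 fold changes lay on both sides of 0, 3 above and 4 below, with a median of -0.01.

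MT-ND6 is the 1 mRNA read from the minus strand. It had 34.8, 5.54 and 17.3 CPM in GST-Ferry 1, 2 and 3, against 39.4, 16.6 and 19.1 CPM in GST 1, 2 and 3, and the 14 counts of GST-Ferry 2 made its lowest value. GST 1 and GST-Ferry 1 stood above the other libraries in both groups. Its log2 fold change was -0.30 ± 0.47 (95% interval -1.32 to 0.72). With GST 3 and GST-Ferry 1 both left out the value was -1.31, past the threshold in edgeR (adjusted p = 0.0294). That fit called 2746 of 15242 genes in all. Without GST 1 the value for MT-ND6 was 0.18. Per base, MT-ND6 stood at 0.180, 0.0737 and 0.0851 of the neighbouring MT-ND5 in GST-Ferry 1, 2 and 3, against 0.181, 0.139 and 0.193 in GST 1, 2 and 3. That ratio is free of the scaling between libraries, and the groups overlapped in it through GST-Ferry 1.

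Complex III has 1 mitochondrially encoded subunit, cytochrome b, and complex V, ATP synthase, has 2 in its membrane part. The cytochrome b mRNA MT-CYB had 1014, 398 and 824 CPM in GST-Ferry 1, 2 and 3, against 917, 524 and 608 CPM in GST 1, 2 and 3, with a log2 fold change of 0.13 ± 0.32. MT-ATP6, which forms part of the proton channel, had 363, 155 and 272 CPM with GST-Ferry, against 360, 182 and 224 CPM with GST (log2 fold change 0.05 ± 0.31). Both showed GST-Ferry 1 and GST 1 high and GST-Ferry 2 low. MT-ATP8, a small subunit of the same membrane part, had 13.7, 2.77 and 12.6 CPM with GST-Ferry, against 19.9, 5.53 and 6.89 CPM with GST (log2 fold change -0.11 ± 0.53, 95% interval -1.25 to 1.02). Its 7 counts in GST-Ferry 2 leave that value loose. MT-ATP8 and MT-ATP6 are known to sit on 1 shared mRNA, yet the level of MT-ATP8 per base was 0.124, 0.0587 and 0.152 of that of MT-ATP6 in GST-Ferry 1, 2 and 3, and 0.182, 0.0999 and 0.101 in GST 1, 2 and 3. For the other shared mRNA, MT-ND4L stood at 0.472 to 0.652 of MT-ND4 per base with GST-Ferry and at 0.539 to 0.566 with GST.

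**Figure D2:**
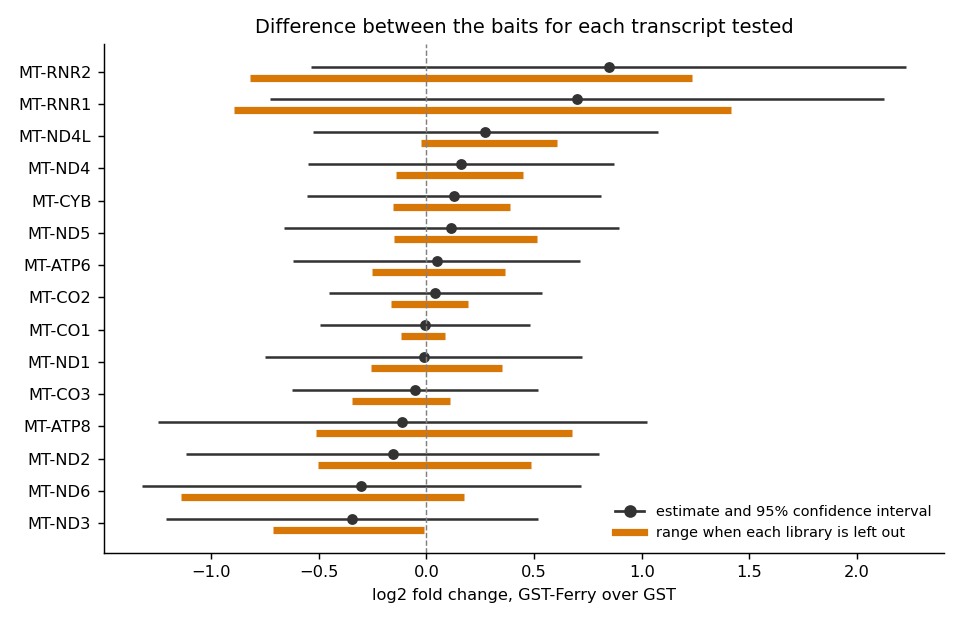
Log2 fold change of GST-Ferry over GST for the 15 transcripts tested (points) with 95% intervals (thin lines) and the range of the estimate when each library is left out in turn (thick lines). Each interval includes 0, and leaving out 1 library moves 14 of the 15 estimates across 0, the exception being MT-ND3.

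The mitochondrial rRNAs varied most, and 1 library set their difference. Kits that remove ribosomal RNA are commonly built to take out the mitochondrial rRNAs as well. What was counted may therefore be what removal left behind, which was not tested. MT-RNR2, the large ribosomal subunit RNA, had 792, 118 and 94.4 CPM in GST-Ferry 1, 2 and 3, against 229, 84.5 and 251 CPM in GST 1, 2 and 3. MT-RNR1, the small subunit RNA, had 209, 42 and 19.1 CPM with GST-Ferry, against 45.3, 24.7 and 102 CPM with GST. GST-Ferry 1 was far above the rest for both, and the other GST-Ferry libraries lay within or below the range of the GST libraries. The log2 fold changes were 0.85 ± 0.64 for MT-RNR2 and 0.70 ± 0.66 for MT-RNR1. Without GST-Ferry 1 they were -0.82 and -0.89. With no filter on low counts MT-RNR2 was past the threshold in edgeR (log2 fold change 0.82, adjusted p = 0.0185). That fit called 744 of 32648 genes in all.

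Set against the mRNAs of the same library, the rRNAs gave 11.5, 3.36 and 1.44 counts per 100 mRNA counts in GST-Ferry 1, 2 and 3, and 3.24, 1.85 and 5.41 in GST 1, 2 and 3. The mRNAs of GST-Ferry 1 were among the higher values but did not stand apart in this way. MT-RNR2 exceeded MT-RNR1 by 3.79, 2.81 and 4.95 times in counts in GST-Ferry 1, 2 and 3, and by 5.05, 3.43 and 2.46 times in GST 1, 2 and 3. Whether rRNA removal worked unequally in these libraries was not tested.

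The 22 tRNA genes were barely covered. They held 26, 3 and 6 counts in GST-Ferry 1, 2 and 3, against 43, 14 and 15 in GST 1, 2 and 3, 107 in all, and 9 of them were at 0 in all 6 libraries. With no filter on low counts, the 13 tRNAs with a count could be tested, and edgeR's test called 0, with 0 at an unadjusted p under 0.05. MT-TE was the 1 of these 13 tRNAs whose groups did not overlap, while 27.1% of all genes that passed the filter had such groups. MT-TE had 2, 0 and 1 counts in GST-Ferry 1, 2 and 3, against 12, 5 and 3 counts in GST 1, 2 and 3. Its log2 fold change in that fit was -1.44 ± 0.99 (adjusted p = 0.641), so a difference was not detectable at this depth. A count of 0 allows up to 0.459 to 1.22 CPM in the GST-Ferry libraries and 0.287 to 0.406 CPM in the GST libraries. Mature tRNAs are short and heavily modified, and RNA-seq libraries of this kind are known to capture them poorly. Of the 107 counts, 76 fell on the 8 minus-strand genes and 31 on the 14 others. The 4 genes with more than 10 counts over the 6 libraries are printed in the sense of the RNA, with the anticodon in capitals, to show which they are: they carry serine, glutamate, proline and threonine.
MT-TS1, minus strand, 25 counts: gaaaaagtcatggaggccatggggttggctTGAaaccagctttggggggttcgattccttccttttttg
MT-TE, minus strand, 23 counts: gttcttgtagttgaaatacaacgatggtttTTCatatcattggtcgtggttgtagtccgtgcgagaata
MT-TP, minus strand, 22 counts: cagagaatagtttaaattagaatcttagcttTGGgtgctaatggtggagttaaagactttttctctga
MT-TT, plus strand, 16 counts: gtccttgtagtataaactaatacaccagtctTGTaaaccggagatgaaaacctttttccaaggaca
By plus-strand position, MT-TS1 (M:7446-7514) begins at the base after MT-CO1, MT-TE (M:14674-14742) at the base after MT-ND6 and MT-TT (M:15888-15953) at the base after MT-CYB. MT-TP lies at M:15956-16023. GST 1 held the most counts of MT-TS1, MT-TE and MT-TP. By CPM, MT-TP was highest in GST-Ferry 1, at 1.02 CPM against 0.968 CPM in GST 1. No library held more than 12 counts of any tRNA. Whether their counts came from mature tRNAs, from uncut precursors or from the opposite strand was not tested.

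What the mRNAs shared was their order across libraries rather than a difference between baits. GST-Ferry 2 was the lowest library for all 13. The highest was GST 1 for 6 of them, GST-Ferry 1 for 4 and GST-Ferry 3 for 3. All 13 were above their own mean log2 level in GST-Ferry 1 and in GST 1, 11 were in GST-Ferry 3, 4 were in GST 3, and none was in GST-Ferry 2 or GST 2. The median deviation from that mean was 0.47, -0.90 and 0.33 on the log2 scale in GST-Ferry 1, 2 and 3, and 0.54, -0.27 and -0.16 in GST 1, 2 and 3. The size of the swing differed between genes. From the lowest to the highest library it was 1.44-fold for MT-CO1, 1.71-fold for MT-CO2 and 1.96-fold for MT-CO3, between 2.34-fold and 3.41-fold for MT-ATP6, MT-CYB, MT-ND4, MT-ND5, MT-ND1 and MT-ND4L, and between 5.02-fold and 7.19-fold for MT-ND2, MT-ND3, MT-ND6 and MT-ATP8. The last 3 had the fewest counts of the 13, 7 to 14 in GST-Ferry 2.

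**Figure D3:**
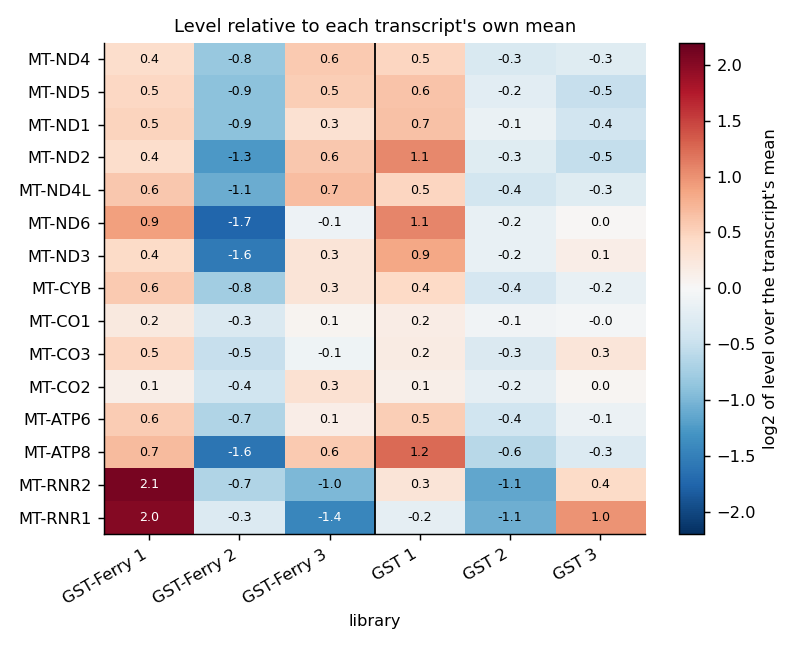
Level of each transcript in each library as log2 of its ratio to the transcript's own geometric mean over the 6 libraries, with GST-Ferry left of GST. The mRNAs are high together in GST-Ferry 1 and GST 1 and low together in GST-Ferry 2, while both rRNAs stand highest in GST-Ferry 1.

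The make-up of the mitochondrial mRNA pool moved with that order. The 3 complex IV mRNAs took 61.0%, 71.9% and 59.1% of the counts of the 13 mRNAs in GST-Ferry 1, 2 and 3, against 58.4%, 67.4% and 69.7% in GST 1, 2 and 3. The 7 complex I mRNAs took 23%, 16.5% and 26.9% with GST-Ferry, against 26.3%, 20.6% and 17.5% with GST. GST-Ferry 2, GST 2 and GST 3 had the larger complex IV share and the smaller complex I share, and they were also the libraries with the smallest shares of counts on mitochondrial mRNAs. MT-CO1 alone took 40.2% ± 5.82 with GST-Ferry and 40.6% ± 3.83 with GST (SD, n = 3 each). The group means differed by less than the SD of either group for each complex: complex V, for example, took 3.75% ± 0.523 with GST-Ferry and 3.74% ± 0.680 with GST.

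**Figure D4:**
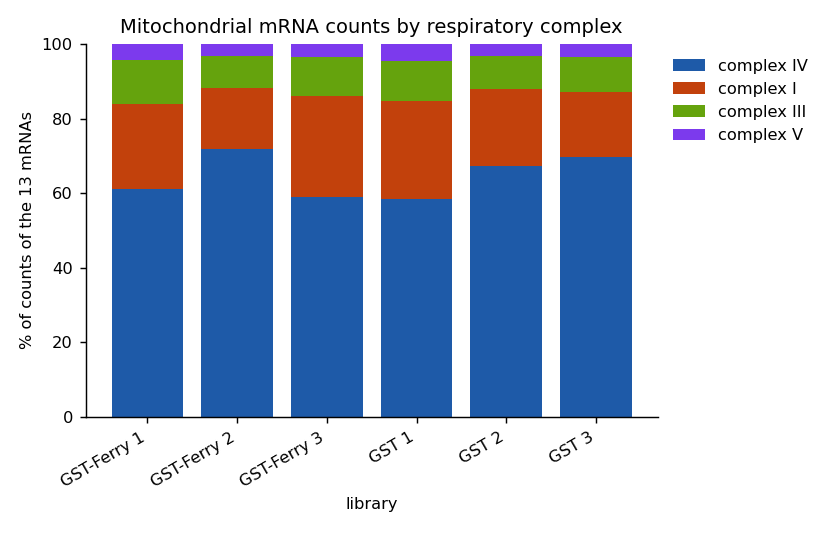
Share of the counts of the 13 mitochondrial mRNAs (%) that fell on complexes IV, I, III and V in each library, with GST-Ferry left of GST. Complex IV ranges from 58.4% to 71.9%, and both groups span most of that range.

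Per length the order of the mRNAs was nearly the same in every library. MT-CO1 was first in all 6, at a mean of 1807 CPM per kilobase (lowest 1448, highest 2084). MT-CO3 and MT-CO2 followed at 1248 and 1041 CPM per kilobase and exchanged places in GST-Ferry 3. MT-CYB at 626 and MT-ND4 at 478 CPM per kilobase came next, in that order, in all 6 libraries. MT-ATP6 (381), MT-ND5 (288) and MT-ND4L (278) traded places 6 to 8, and MT-ND1 (199) and MT-ND2 (86.6) held places 9 and 10 throughout. MT-ATP8 (49.4), MT-ND6 (42.1) and MT-ND3 (41.3) changed order between libraries and cannot be ranked among themselves.

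Nuclear copies of mitochondrial DNA limit the counts too, and unequally. Of all windows of 50 bases, 49.5% in MT-CO1, 46.7% in MT-ATP6 and 43.6% in MT-ND2 also occur exactly in a nuclear transcript of GENCODE 29, against 1.19% in MT-CYB and 0% in MT-ND3, MT-ND4L and MT-RNR1. How reads with several matches were treated is not given, so by this measure levels of the first group are the less certain ones. Nuclear DNA outside annotated transcripts was not searched, so a share of 0% does not show that a gene lacks nuclear copies. Counts on the 417 nuclear pseudogenes of these genes came to 0.907% to 1.05% of the mitochondrial mRNA and rRNA counts with GST-Ferry and 0.978% to 1.31% with GST. MTND2P28 on chromosome 1 had 18.9, 6.34 and 6.49 CPM in GST-Ferry 1, 2 and 3, against 19.4, 5.81 and 7.18 CPM in GST 1, 2 and 3, with GST-Ferry 1 and GST 1 high and, unlike MT-ND2, GST-Ferry 3 low. MTND5P26 on the X chromosome had 7.28, 5.94 and 4.33 CPM with GST-Ferry, against 3.58, 4.99 and 9.24 CPM with GST, an order unlike that of MT-ND5. MTATP6P1, chosen after its values were seen because it had the most counts, had 28.8, 3.56 and 32.9 CPM with GST-Ferry, against 42.8, 18.5 and 23 CPM with GST. Adding each pseudogene to its parent gene left all 15 transcripts uncalled. The set held no pseudogene of MT-RNR1, and MT-RNR2 kept a log2 fold change of 0.85, so this step says little about the rRNAs.

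In complexes I, III, IV and V the nuclear-encoded subunits had higher median log2 fold changes than the mitochondrially encoded ones. The difference between the sets was not tested. Within complex I the median log2 fold change was -0.01 for the 7 mitochondrial mRNAs and 0.50 for 37 nuclear ones. It was 0.13 for MT-CYB and 0.41 for 9 nuclear mRNAs in complex III, -0.01 for 3 and 0.62 for 11 in complex IV, and -0.03 for 2 and 0.36 for 17 in complex V. The 4 mRNAs of complex II, which has no mitochondrially encoded part, had a median of 0.39. Of the 78 nuclear mRNAs 74 were above 0, where 47.8% of all genes tested were. By edgeR's quasi-likelihood test 5 of the 78 rose (6.41%, against 0.592% of all genes called higher). They were UQCRC1 of the complex III core, COX6B1 and COX8A of complex IV, and ATP5F1B and ATP5F1D of the ATP synthase head and stalk. Their log2 fold changes lay between 1.06 for ATP5F1D and 1.37 for UQCRC1, with an adjusted p of 0.042 to 0.048 in edgeR. UQCRC1 averaged 229 ± 68.7 CPM with GST-Ferry and 88.1 ± 15.1 CPM with GST, and COX6B1 averaged 148 ± 34.3 CPM with GST-Ferry and 65.2 ± 10.7 CPM with GST (SD, n = 3 each). COX8A averaged 111 ± 18.5 CPM with GST-Ferry and 52.1 ± 10.2 CPM with GST, and ATP5F1D averaged 72.1 ± 7.02 CPM with GST-Ferry and 34.4 ± 7.15 CPM with GST. These calls depended on the scaling, the tool and the libraries. Their number was 0 with RLE size factors, with library sizes alone, with scaling without mitochondrial and bait genes (those of FERRY subunits) and with limma-voom, and 16 with DESeq2. It was 2 without GST 1, 3 without GST-Ferry 1, 36 without GST 3, and 0 without GST 2, GST-Ferry 2 or GST-Ferry 3. Over all genes, DESeq2 called 691 of 11760 and the fit without GST 3 called 1259 of 15765.

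**Figure D5:**
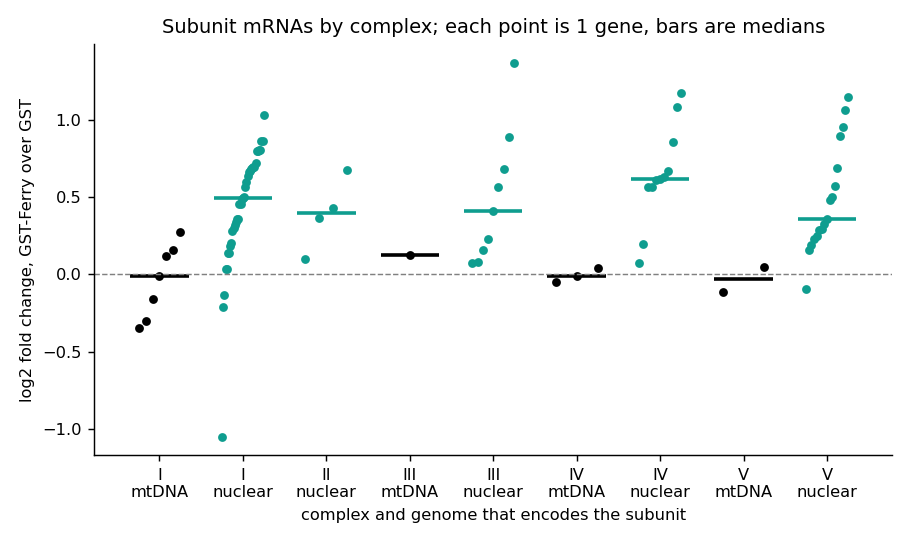
Log2 fold change of GST-Ferry over GST for each subunit mRNA of complexes I to V, split by the genome that encodes it, with bars for medians. Nuclear medians lie between 0.36 and 0.62, and mitochondrial medians between -0.03 and 0.13.

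Counted within each library, the 13 mitochondrial mRNAs gave 1.21, 0.474 and 0.843 counts for each count of the 74 nuclear mRNAs of complexes I, III, IV and V in GST-Ferry 1, 2 and 3, against 1.75, 0.995 and 0.936 in GST 1, 2 and 3. The groups overlapped through GST-Ferry 1. The nuclear set by itself took 0.756%, 0.949% and 0.882% of counts with GST-Ferry and 0.532%, 0.627% and 0.643% with GST, with no overlap. GST-Ferry 2 was the highest library for the nuclear set and the lowest for the mitochondrial mRNAs, and GST 1 the lowest for the nuclear set and the highest for 6 of the mitochondrial ones. The most abundant nuclear subunit mRNA, ATP5F1B of the catalytic head of ATP synthase, had 669, 1102 and 857 CPM with GST-Ferry, against 407, 382 and 395 CPM with GST. The most abundant ones in the other complexes did not pass the test. NDUFV1 averaged 266 ± 67.2 CPM with GST-Ferry and 167 ± 56.9 CPM with GST, and SDHB averaged 124 ± 19.8 CPM with GST-Ferry and 77.4 ± 7.66 CPM with GST. UQCRC2 averaged 236 ± 58.6 CPM with GST-Ferry and 177 ± 50.8 CPM with GST, and COX7C averaged 346 ± 61.1 CPM with GST-Ferry and 223 ± 66.9 CPM with GST.

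Nuclear mRNAs for the machinery that copies, transcribes, processes and translates mitochondrial DNA lay on both sides of 0. Of 67 such genes 66 were tested, 34 had a log2 fold change above 0 and 32 below, the median was 0.00, and 1 was called, 1.52% against 0.624% of all genes. The called gene was HSD17B10, a subunit of mitochondrial RNase P, the enzyme that cuts tRNAs at their front end. It rose to 56.9, 95.4 and 76.6 CPM in GST-Ferry 1, 2 and 3, against 35.4, 37.8 and 26.5 CPM in GST 1, 2 and 3 (log2 fold change 1.19 ± 0.24, adjusted p = 0.0477 by edgeR's quasi-likelihood test). This call was lost under each other scaling, at an adjusted p of 0.0559 to 0.0826 in edgeR, and with limma-voom (adjusted p = 0.0642), while DESeq2 gave 0.00105. Its adjusted p in edgeR was 0.0536 without GST 1, 0.0986 without GST 2, 0.425 without GST-Ferry 2 and 0.409 without GST-Ferry 3. The number of called genes in the list was 0 in these 4 fits and 8 without GST 3, where 1259 of 15765 genes were called in all. HSD17B10 also acts outside RNA processing, as a dehydrogenase in the breakdown of isoleucine.

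The other 9 genes named here did not pass edgeR's test, where their adjusted p lay between 0.0701 for TUFM and 0.897 for LRPPRC. By role, over all genes tested, the median log2 fold change was -0.24 for 9 transcription genes, 0.25 for 7 of mtDNA replication, -0.04 for 21 of RNA processing, stability and decay, -0.01 for 15 of rRNA and tRNA modification, and 0.16 for 14 of translation and membrane insertion. The mitochondrial RNA polymerase POLRMT had a log2 fold change of 0.68 ± 0.25 and TFAM, which packages mtDNA and starts its transcription, of -0.21 ± 0.28. LRPPRC and SLIRP, which form a complex that stabilises mitochondrial mRNAs, had values of -0.07 ± 0.25 and 0.36 ± 0.21, and LRPPRC stood at 365 ± 74.4 CPM with GST-Ferry and 383 ± 126 CPM with GST (SD, n = 3 each). At the upper end were the elongation factor TUFM (0.94 ± 0.23) and the rRNA methyltransferase MRM3 (0.83 ± 0.23). At the lower end were FASTKD1 (-0.85 ± 0.23), MTERF2 (-0.62 ± 0.27) and the tRNA methyltransferase TRMT61B (-0.59 ± 0.23).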

How the data were processed

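The authors deposited 1 table of raw read counts per Ensembl gene ID for 3 GST-Ferry and 3 GST libraries. The build GRCh38.p13 and the tools STAR 2.5.2b and bcl2fastq 2.19.1 are named, with no further detail, per the submitters' processing notes. The counting program, annotation release, strand setting and treatment of reads with several matches are not given in the sources used here. Symbols, gene types, coordinates and sequences came from GENCODE 29 (GRCh38) and a list of gene names, and 58575 IDs received a symbol.

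Genes were filtered with filterByExpr (minimum count 10, minimum total 15), which left 15546, scaled with TMM factors (0.923 to 1.1) and tested with edgeR 4.0.16 in R 4.3.3 (quasi-likelihood test, two-sided, no covariate). Benjamini-Hochberg adjustment covered every gene in the fit, and a gene was called where the adjusted p was under 0.05. Log2 fold changes are GST-Ferry over GST. Normalised CPM are CPM of the TMM-scaled library, and shares use the unscaled totals. Intervals of fold changes are from the same fit, and binomial intervals are exact (Clopper-Pearson). The floor for a count of 0 is 3 counts of the library total and covers counting error only.

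All 37 mitochondrial genes were followed, the mRNAs and rRNAs singly and tRNAs by name where most abundant. Of the nuclear lists the called genes, the 3 highest and 3 lowest log2 fold changes at a mean of at least 10 CPM, 5 set genes and the most abundant subunit of each complex are named, and nuclear pseudogenes with at least 10 counts in each library. The members and lists were chosen with earlier results of these data known. Alternatives were RLE scaling, library sizes alone, scaling without mitochondrial genes and genes of FERRY subunits (bait genes), adding pseudogene counts to the parent gene, no filter, a threshold of 0.01, DESeq2 1.42.0, limma-voom (limma 3.58.1), the replicate number as a block, and libraries left out. The fit was tested on simulated counts. Figures were drawn with matplotlib 3.10.9.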

Additional observations from a re-analysis of the deposited data

How the results depend on the processing

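None of the 37 mitochondrial genes was called under any alternative except 1 with no filter on low counts (MT-RNR2) and 1 with GST 3 and GST-Ferry 1 both left out (MT-ND6). In all, the first of these fits called 744 of 32648 genes and the second 2746 of 15242. The median log2 fold change of the 13 mRNAs ran from -0.28 to 0.36 over all alternatives, against -0.01 in the main fit. Each single shift from the main value was below the pooled SD of the libraries within a group (0.62). With 1 library left out a shift of that size could hardly arise, so the bar decides nothing for those fits. The shares of counts moved by less than 1 SD with totals without bait genes or of protein-coding genes only. The ratios of mitochondrial to nuclear mRNA did so with pseudogene counts added. Leaving out 1 of 3 libraries cannot move their mean by 1 SD of the same 3, so that bar decides nothing there. In the GST-Ferry group the ratio ran from 0.658 without GST-Ferry 1 to 1.03 without GST-Ferry 2. In the GST group it ran from 0.965 without GST 1 to 1.37 without GST 3. Leaving out each library in turn, the log2 fold change ranged from -0.89 to 1.42 for MT-RNR1, from -0.82 to 1.23 for MT-RNR2, from -0.26 to 0.35 for MT-ND1, from -0.50 to 0.49 for MT-ND2, from -0.12 to 0.088 for MT-CO1, from -0.16 to 0.19 for MT-CO2, from -0.51 to 0.68 for MT-ATP8, from -0.25 to 0.36 for MT-ATP6, from -0.34 to 0.11 for MT-CO3, from -0.024 to 0.61 for MT-ND4L, from -0.14 to 0.45 for MT-ND4, from -0.15 to 0.51 for MT-ND5, from -1.14 to 0.18 for MT-ND6, from -0.15 to 0.39 for MT-CYB. MT-ND3 stayed below 0. With GST 3 and GST-Ferry 1 both left out, values on the other side of 0 were -0.18 for MT-RNR1, -0.56 for MT-RNR2, -0.34 for MT-ATP6, -0.054 for MT-ND4L, -0.086 for MT-ND4, -0.28 for MT-ND5 and -0.24 for MT-CYB. With library sizes alone they were -0.023 for MT-CO2 and -0.016 for MT-ATP6, and with no filter -0.013 for MT-CO2 and -0.0026 for MT-ATP6. The cause was not tested.

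Of the genes for mtDNA expression, 1 was called, against 0 at a threshold of 0.01, with RLE size factors, library sizes alone, scaling without mitochondrial and bait genes or limma-voom, 3 with no filter, 4 with DESeq2, 19 with GST 3 and GST-Ferry 1 both left out, and 0 to 8 with 1 library left out. Of the nuclear OXPHOS subunits, 5 were called, against 0 in the first 5 of these settings, 13 with no filter, 16 with DESeq2, 59 with GST 3 and GST-Ferry 1 both left out, and 0 to 36 with 1 library left out. Over all 15546 genes tested, 97 calls became 11 with RLE size factors, 7 with library sizes alone and 14 with limma-voom. They became 6 with scaling without mitochondrial and bait genes. The count was 744 of 32648 genes with no filter and 691 of 11760 with DESeq2. It was 2746 of 15242 with GST 3 and GST-Ferry 1 both left out. With 1 library left out it ran from 0 of 16307 without GST-Ferry 2 to 1259 of 15765 without GST 3. Deviations of same-numbered libraries correlated at 0.25, 0.08 and -0.13, and those of differently numbered ones at -0.26 to 0.18. With 3 libraries per bait these values cannot settle whether the numbers pair the samples. The labels state no pairing, and the main fit used none. With the replicate number as a block 0 mitochondrial genes, 1 gene for mtDNA expression and 6 nuclear OXPHOS subunits were called, and 195 genes in all. Depth limits MT-ATP8, MT-ND3, MT-ND6 and the tRNAs, with 14 or fewer counts each in GST-Ferry 2.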
